A study of Mus musculus with 12 samples.

Results

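Odam, Prol1 and Scgb1b27 are secretory genes, and their messages were lower in mammary tumors labelled ShcA-null than in a pool of NIC tumors. These 3 genes, of 20404 tested, were chosen by their tumor-over-pool ratios in the authors' deposited value table of the same arrays and were located here by probe and by name, so every ratio of theirs below is a description and none carries a test. Averaged over 8 tumors, Odam was 8.16-fold lower than the pool, Scgb1b27 6.59-fold lower and Prol1 3.47-fold lower. In tumor 5, read on 1 array, Odam stood close to the pool (log2 ratio -0.22). Scgb1b27 was nearer to the pool there than in the other tumors, at -0.46, or -1.05 in the authors' value table.

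The data were 12 Agilent 2-colour arrays of total RNA from 8 mouse mammary tumors labelled SHC null. Each array held 1 tumor against the same pooled RNA of NIC tumors. NIC mice carry a transgene in which the MMTV promoter drives an activated ErbB2 (Neu) receptor together with Cre recombinase. Tumors and pool therefore share the oncogene and Cre and differ, by their labels, in the loss of ShcA (the Shc1 adaptor, which couples receptor tyrosine kinases to downstream signalling). In such a model Cre acts in mammary epithelium, so stromal and immune cells of a tumor keep the gene. The age and strain of the mice and how many tumors went into the pool are not recorded in the labels. The pool is 1 control sample, and no test here includes a spread between control tumors. Tumors 1 to 8 were each hybridised once with the tumor in Cy5 (first arrays), and tumors 1 to 4 once more with the dyes exchanged (swapped arrays). Values below are log2 ratios of tumor over pool, with both arrays of a tumor averaged and n counting tumors. Since each sample is bulk RNA, fewer cells that make a message and less message per cell cannot be told apart.

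The labels of the swapped arrays are in doubt. Over all genes, the swapped array labelled tumor 1 correlated best with the first array of tumor 1 (r = 0.44), but that labelled tumor 2 did so with tumor 3 (r = 0.82), that labelled tumor 3 with tumor 4 (r = 0.39) and that labelled tumor 4 with tumor 8 (r = 0.68). Results are therefore given for the first arrays alone as well. Shc1 itself did not separate the tumors from the pool (mean 0.12 ± 0.65, SD, n = 8; limma adjusted p = 0.716). It was at -2.05 on the first array of tumor 3 and at -2.22 on the swapped array labelled tumor 2, and between -0.03 and 0.74 on the other 10 arrays. Where its probe lies relative to the deleted part of the gene is not recorded in the labels. Of 8 markers of mammary luminal epithelium, 3 were higher than in the pool and none was lower, and the counts were the same for 8 myoepithelial and basal markers (Krt5, Krt14 and Oxtr higher). Over all genes 17.1% passed limma's adjusted p of 0.05, with 6.58% higher and 10.6% lower. Of the called genes 38.4% were higher, a share that rose to 71.1% when each array was centred on its median in place of loess.

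Odam encodes odontogenic ameloblast-associated protein, which is secreted by ameloblasts and the epithelium attached to the tooth and is also made by some epithelial tumors. It belongs, with the caseins, to the secretory calcium-binding phosphoprotein family. Odam and the caseins lie in a cluster on mouse chromosome 5. Prol1 (opiorphin-type proline-rich protein, listed on the array under its older name Muc10) lies in the same cluster and encodes a mucin-like protein of saliva. Scgb1b27 (listed as Abpa) encodes the alpha subunit of androgen-binding protein, a secretoglobin dimer of mouse saliva and tears that takes part in mate recognition.

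Each gene was read by a single 60-base probe, and these are the sequences that were measured, taken from the array files with their mm7 positions. The Odam probe lies at chr5:87830759-87830818 and the Prol1 probe at chr5:88269029-88269088, 438 kb away. The Scgb1b27 probe is placed on chromosome 7_random, a set of sequence not then ordered, where it spans 277362 to 277542. That span covers 181 bases for a 60-base probe. Exon and strand annotation for mm7 was not used here. The secretoglobin probe was the richest of these in G and C (45%, against 35% for Odam and 38.3% for Prol1).
Odam: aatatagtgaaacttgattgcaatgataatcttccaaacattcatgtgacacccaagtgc
Prol1: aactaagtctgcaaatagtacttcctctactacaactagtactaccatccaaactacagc
Scgb1b27: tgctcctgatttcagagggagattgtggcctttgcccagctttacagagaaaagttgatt

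Odam was at -3.54, -3.98, -3.47, -3.66, -0.22, -2.28, -3.11 and -3.97 in tumors 1 to 8. All 8 tumors were below the pool, as for 10.3% of genes measured in all of them, and 7 were so by more than 2-fold, with tumor 5 the exception. The mean was -3.03 ± 1.26 (SD, n = 8), and -3.43 ± 0.59 (n = 7) without tumor 5. Counted from the lowest mean, Odam ranked 7 of 20404 genes.

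The swapped arrays labelled tumors 1 to 4 gave -2.93, -4.14, -2.93 and -3.94 for Odam, and the first arrays of the same tumors -4.16, -3.82, -3.999 and -3.37. Odam was thus more than 2-fold below the pool on all 8 of these arrays, in both dye orientations, whichever tumors the swapped arrays hold. First arrays alone gave a mean of -3.12 ± 1.32 (n = 8) and swapped arrays -3.49 ± 0.65 (n = 4). The SD between arrays of a labelled pair was 0.62. In the order of the tumors, tumor 6 and then tumor 5 stood above their lower neighbour by more than this, while the other neighbours, from -3.98 to -3.11, did not differ by more.

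The Odam level of the pool hardly varied among the first arrays (SD 0.13 on the log2 intensity scale), whereas that of the tumors varied with an SD of 1.33. The differences between tumors therefore arose in the tumor channel. The pool was brighter where it was labelled with Cy3 (mean log2 intensity 14.24) than with Cy5 (13.08). It was in Cy5 only on the swapped arrays, which are on a slide of their own, so dye and slide cannot be told apart. In tumor 5 the tumor channel reached 13.92, its highest over the 12 arrays.

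Prol1 was at -2.27, -3.77, -2.77, -1.58, -0.84, -0.25, -1.54 and -1.35 in tumors 1 to 8. All 8 tumors were again below the pool, 6 of them by more than 2-fold. Here tumors 5 and 6 came closest to the pool. The mean was -1.80 ± 1.11 (SD, n = 8), and Prol1 ranked 90 of 20404 genes from the lowest.

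On the first arrays, tumors 1 to 4 (scanned on slide 1) lay between -3.54 and -2.07 for Prol1, with a mean of -2.61 ± 0.65 (n = 4). Tumors 5 to 8 (slide 2) lay between -1.54 and -0.25, with a mean of -0.997 ± 0.58 (n = 4). Whether other genes split between these slides in the same way was not tested. Since each tumor's first array is on 1 slide, slide and tumor cannot be told apart. The swapped arrays labelled tumors 1 to 4, on slide 3, gave -2.29, -4.93, -2.01 and -1.10. Of these, the array labelled tumor 4 lay within the range of tumors 5 to 8, and it is the one that correlated best with tumor 8. The SD between arrays of a labelled pair was 1.04, and no neighbours in the order of tumors differed by more than that. It was 0.50 when each swapped array was set beside the first array it correlated with best.

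Scgb1b27 was at -2.35, -3.14, -3.20, -3.47, -0.46, -3.44, -2.81 and -2.89 in tumors 1 to 8. Apart from tumor 5, the tumors lay between -3.47 and -2.35, but on first arrays alone they spread from -3.44 to -1.503. The mean was -2.72 ± 0.98 (SD, n = 8), or -3.04 ± 0.40 (n = 7) without tumor 5, and the gene ranked 14 of 20404 from the lowest.

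Scgb1b27 differed more between dye orientations than the other two genes. The first arrays of tumors 1 to 4 gave -1.503, -1.83, -2.85 and -2.31, and the swapped arrays labelled with the same tumors -3.19, -4.45, -3.55 and -4.63. Every swapped array lay below its labelled partner, by 0.70 to 2.62. The mean was -2.26 ± 0.96 on first arrays (n = 8) and -3.96 ± 0.70 on swapped arrays (n = 4), so the size of the decrease depends on the arrays used while its direction does not. Fits with a dye term gave means of -3.11 with labelled pairs and -3.05 with best-matching pairs. How much of the difference between orientations comes from the dye was not tested.

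**Figure D1:**
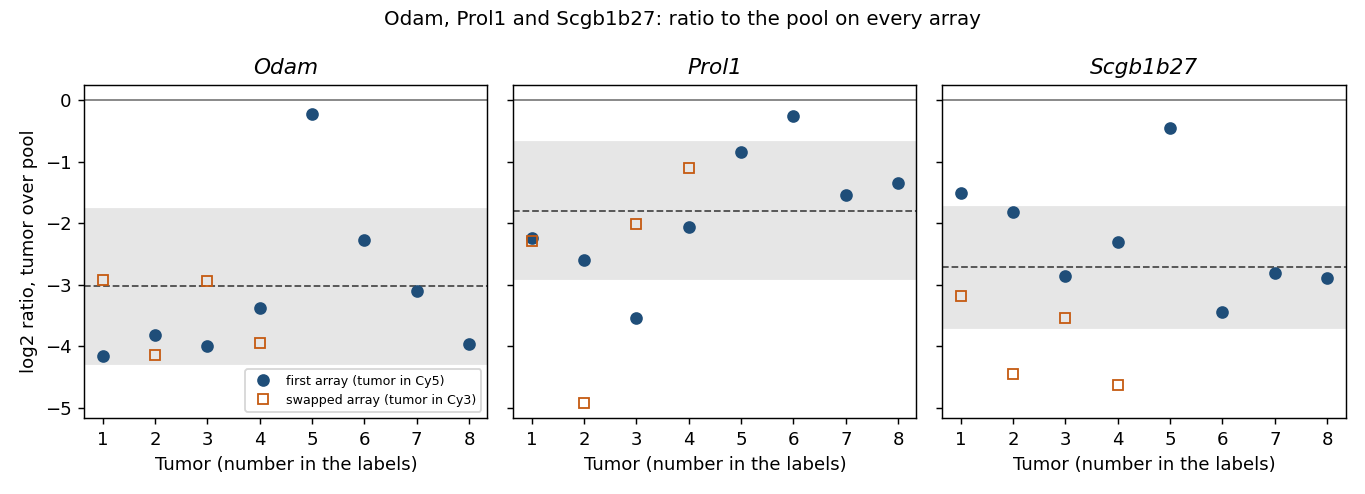
Log2 ratio of tumor over pool for Odam, Prol1 and Scgb1b27 on every array, by labelled tumor number. Filled circles are first arrays, open squares swapped arrays, the dashed line is the mean over 8 tumors, the grey band its SD and the line at 0 the level of the pool; every point is below 0, and tumor 5 is closest to 0 for Odam and Scgb1b27.

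All 3 probes were well above background in both RNAs on 12 of 12 arrays, and none was saturated. The authors' deposited value table, a separate processing of the same arrays, put all arrays below the pool except 1: Prol1 in tumor 6, at 0.01. In that table tumor 5 was at -0.18 for Odam and at -1.05 for Scgb1b27. The latter is lower than the -0.46 obtained from the scanner signals, but it remains the highest of the 12 arrays.

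**Figure D2:**
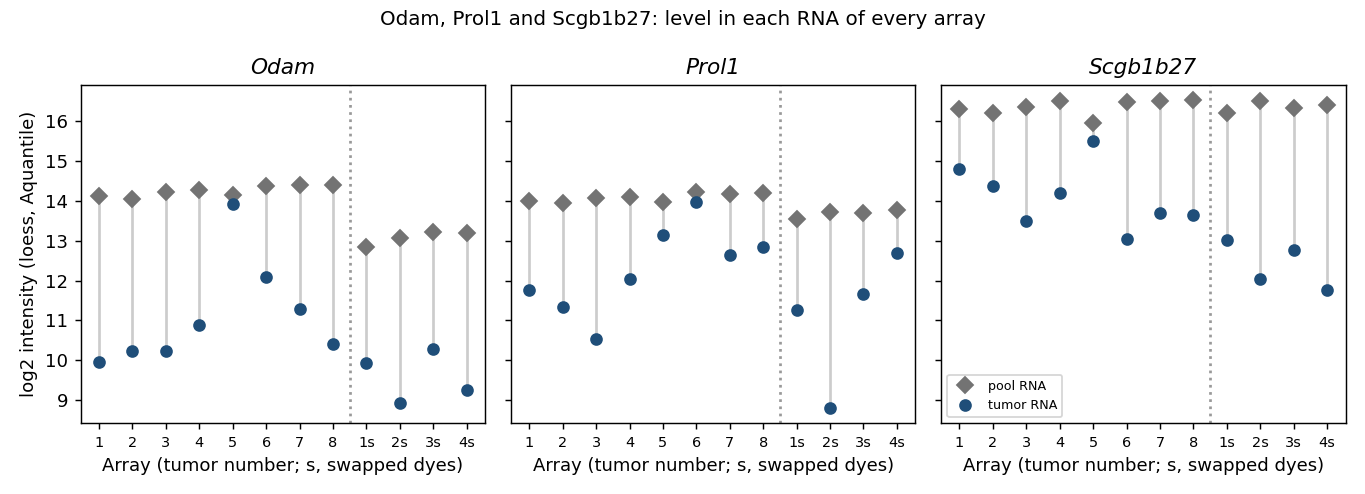
Log2 intensity of the pool RNA (grey diamonds) and of the tumor RNA (blue circles) for each gene on each of the 12 arrays; s marks swapped dyes, right of the dotted line, and a vertical line joins both RNAs of an array. On first arrays the pool stays level while the tumor RNA moves, with SDs of 0.13 against 1.33 for Odam.

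Odam and Prol1 varied together over the tumors to some degree (r = 0.59, n = 8), also without tumor 5 (r = 0.69, n = 7). Like Prol1, Odam had a lower mean on the first arrays of slide 1 than on those of slide 2. It was -3.84 ± 0.34 in tumors 1 to 4 and -2.40 ± 1.61 in tumors 5 to 8 (n = 4 each). Slide and tumor cannot be told apart in this correlation either. Odam and Scgb1b27 had r = 0.79 with tumor 5 and -0.28 without it, so their correlation rests on that tumor. Prol1 and Scgb1b27 had r = 0.25, and -0.21 without tumor 5. These points share the pool and, for tumors 1 to 4, the doubtful swapped arrays. On the first arrays alone the corresponding values with all tumors were 0.66, 0.47 and -0.02. Without tumor 5 those first arrays gave 0.75, -0.65 and -0.51 (n = 7).

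In tumor 5, 8.51% of genes lay more than 2-fold from the pool. This was the third lowest share among the 8 tumors, after tumor 4 (6.55%) and tumor 1 (6.58%), while tumor 6 had the highest (33.7%). Tumors 1 to 4 are means of both their arrays and tumors 5 to 8 single arrays, so these shares are unlike measures. Among tumors 5 to 8, tumor 5 had the lowest share, with tumor 8 at 14.6% and tumor 7 at 22.4%. Milk genes, described below, were above the pool in tumor 5, with a median of 2.15 over the 18 of them measured there.

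Genes whose pattern over the 8 tumors was most like each of the 3 genes were sought among 18844 genes measured in every tumor, by Pearson correlation. For Odam these were Cst6 (r = 0.97), an inhibitor of cysteine proteases, the growth factor gene Gdf7 (0.96), the mineralocorticoid receptor gene Nr3c2 (0.96), Ptx4 (0.95) and Ndufaf7 (0.95). The Cst6 value fell to 0.33 on first arrays alone, while Gdf7 and Nr3c2 stayed at 0.86 and 0.83. For Prol1 they were the tachykinin gene Tac2 (0.97), the transcription factor gene Bhlhe40 (0.97), Tmem191c (0.97), Ugt2b34 (0.96) and Sat2 (0.96). For Scgb1b27 they were Tmem8b (0.97), the transcript ENSMUST00000037055 (0.96), LOC432995 (0.95), Mpped1 (0.95) and Rbm4 (0.93). Without tumor 5 the last 2 fell to 0.53 and 0.58 and ENSMUST00000037055 to 0.68. With 8 points and so many genes searched, these values only describe the tumors measured. The means of the 5 for Odam lay between -0.25 and 0.12. Among those for Prol1, Ugt2b34 was higher than the pool (0.42; limma adjusted p = 0.017), and its correlation fell to 0.56 on first arrays.

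Around Odam, genes on chromosome 5 were called in both directions, but the 2 lower calls were fragile, as given below. Within 500 kb of the Odam probe, 12 other genes were measured well enough to test. Of these, 5 were higher than the pool, 2 were lower and 5 did not pass, which is 58.3% called against 17.1% of all genes. The genes that rose were caseins, the main proteins of milk, with 1 unnamed transcript among them, and all lie on the same side of Odam.

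Csn1s1 (alpha casein) was at 3.93, 4.24, 5.85, 4.52, 4.29, 3.32, 2.59 and 5.22 in tumors 1 to 8, above the pool in all 8. Its mean was 4.25 ± 1.02 (SD, n = 8; limma adjusted p = 0.000181). Csn2 (beta casein) had a mean of 4.59 ± 2.11 over the 7 tumors in which its spot was usable (adjusted p = 0.00428, limma). Csn1s2a was higher in 7 of 8 tumors, with a mean of 2.75 ± 1.91 (adjusted p = 0.0136, limma), and was at -1.49 in tumor 7.

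Csn1s2b, whose probe lies 78.9 kb from that of Odam, was the nearest gene that passed, at 2.32 ± 1.78 (n = 8; limma adjusted p = 0.0197). The AK052843 transcript was at 1.45 (adjusted p = 0.013, limma). Csn3 (kappa casein), 31.7 kb to the other side of Odam, was at 1.06 ± 1.22 and did not pass (limma adjusted p = 0.0811). In tumor 5, where Odam stood near the pool, Csn1s2b was at 3.42 and Csn3 at 2.51. Smr3a, a salivary gene between Odam and Prol1, was at 0.25 ± 0.85 and did not pass, and its sign changed in 5 of 22 alternative settings.

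The genes that fell were the sulfotransferase genes Sult1e1, which inactivates estrogen (-0.76; adjusted p = 0.025, limma), and Sult1d1 (-0.66; adjusted p = 0.046, limma). Both calls were fragile. Sult1e1 passed in 9 of 23 alternative settings and Sult1d1 in 6, whereas Csn1s1 passed in 22 of 23. With a dye term and the swapped arrays paired by best match, 4 of the 12 neighbours were called, against 7.89% of all genes. Amtn, a tooth enamel gene, was not well above background.

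**Figure D3:**
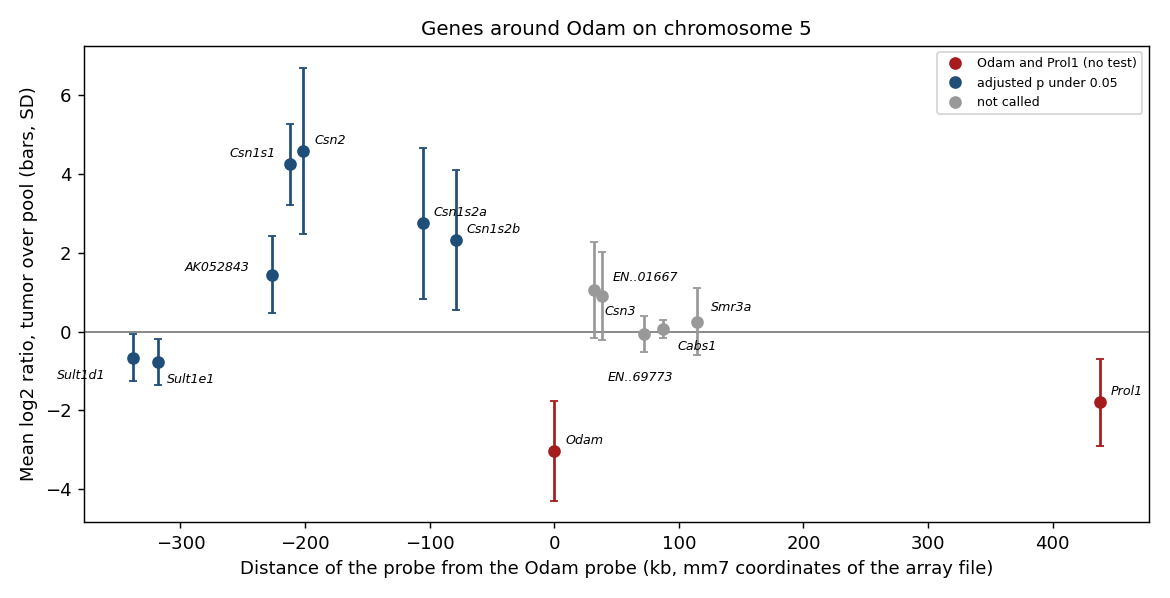
Mean log2 ratio of tumor over pool (bars, SD over tumors) of genes within 500 kb of the Odam probe, by distance in kb. Odam and Prol1 (red) lie below 0, called caseins to the left (blue) between 2.32 and 4.59, and genes that were not called are grey; EN stands for Ensembl transcripts.

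The promoters of Odam, chosen for its low ratio, and of the casein gene Csn2, which rose, are shown to let their sequence be compared. Each runs from 250 bases before to 50 bases after the annotated start in RefSeq (GRCm38.p6). The Odam promoter is chr5:87884760-87885059, plus strand, and the Csn2 promoter chr5:87699376-87699675, minus strand. Capitals mark the STAT5 letters TTCNNNGAA, the form bound by the prolactin-activated factor of milk genes.
Odam promoter: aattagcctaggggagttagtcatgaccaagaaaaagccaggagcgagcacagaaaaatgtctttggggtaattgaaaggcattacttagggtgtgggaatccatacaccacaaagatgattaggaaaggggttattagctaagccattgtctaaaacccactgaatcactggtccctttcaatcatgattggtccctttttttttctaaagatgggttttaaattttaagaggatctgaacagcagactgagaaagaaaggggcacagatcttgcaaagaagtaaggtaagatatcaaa
Csn2 promoter: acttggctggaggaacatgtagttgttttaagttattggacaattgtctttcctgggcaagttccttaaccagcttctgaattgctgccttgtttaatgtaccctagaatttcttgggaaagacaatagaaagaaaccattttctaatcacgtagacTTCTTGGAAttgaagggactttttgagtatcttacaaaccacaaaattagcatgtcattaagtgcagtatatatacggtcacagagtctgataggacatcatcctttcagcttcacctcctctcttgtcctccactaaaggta

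Matches on both strands are given for 3 motifs. The STAT5 letters occur in 8.30% of 32851 promoters of this length, the AP-2 letters GCCNNNGGC in 16.6% and TATAAA in 13.6%. None of the 3 was in the promoter of Odam or of Prol1. That of Scgb1b27 held TATAAA once, 42 bases after the annotated start, and none of the others. The promoters of Csn1s1, Csn2 and Csn1s2a each held the STAT5 letters once, starting at -100, -93 and 20 from the start. A match or its lack in these windows says nothing about binding in the tumors.

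The wider families were described from lists chosen with earlier results of these data known, with Odam, Prol1 and Scgb1b27 left out of each count. Among 11 tested genes of the secretory calcium-binding phosphoprotein family, 4 rose and none fell (36.4% called, against 17.1% of all genes). The family's median was 1.06, against -0.02 over all genes. The 4 were the caseins above. The tooth matrix genes Ambn, Enam, Amtn and Dspp were not well above background.

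Of the 19 milk protein and milk fat globule genes, 11 rose and 1 fell (median 1.32), which is 63.2% called against 17.1% of all genes. Beside the caseins, Glycam1, a mucin-like milk glycoprotein, was higher in 8 of 8 tumors at 2.87 ± 0.71 (SD, n = 8), and it passed in 23 of 23 alternative settings. The gene that fell was Pigr, which carries IgA into milk and other secretions (-1.95 ± 1.06, lower in 7 of 8 tumors; limma adjusted p = 0.0055). In Pigr, tumor 2 was the exception at 0.28.

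Of 28 secretoglobin genes listed, 9 were found on the array by name, including Scgb1b27. The list did not hold the name Abpb, so that gene, described below, is in none of these counts. Apart from it, 4 were tested and none passed limma's adjusted p, as 17.1% of all genes did, while 1 had an unadjusted p under 0.05. Scgb3a1 came nearest, at 0.42 (limma adjusted p = 0.0522). Scgb1b2, Scgb2b20, Scgb2b24 and Scgb2b26 were not well above background. Genes of this family are close copies of each other, and whether the Scgb1b27 probe also reads other members was not tested.

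A gene that the file lists as Abpb, the older name for beta subunits that pair with the alpha subunit, lies next to Scgb1b27, with 2 probes 9.45 and 9.56 kb away. It was singled out after its values were seen. The probe that stands for the gene was at -2.47, -5.27, -2.94, -4.11, 1.62, -0.92, -0.36 and -2.56 in tumors 1 to 8. It was below the pool in 7 of 8 tumors, and above it in tumor 5. The mean of -2.13 ± 2.18 (SD, n = 8) did not pass (limma adjusted p = 0.0551), and the other probe gave -2.57 ± 2.61.

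On the first arrays of tumors 1, 2 and 4, both Abpb spots were marked as non-uniform by the scanner software and were left out, so those tumors rest on the doubtful swapped arrays. The first arrays left gave a mean of -1.10 ± 1.92 (n = 5). In the scanner's own log2 ratios, the spots left out for the probe that stands for the gene read 0.13, -0.29 and -0.40 in tumors 1, 2 and 4. On the swapped arrays labelled with these tumors that probe read -2.64, -5.38 and -4.22, far lower. With outlier spots kept, the mean was -1.36 ± 1.51 (n = 8; limma adjusted p = 0.0646). Over 22 alternative settings the mean of Abpb ranged from -3.62 to -0.56, and it passed in 6 of them (lowest limma adjusted p = 0.00847), among them both fits with a dye term, the value table and the fit without tumor 5. Its pattern over tumors, with tumors 1, 2 and 4 read on swapped arrays alone, had r = 0.86 with Odam and 0.70 with Scgb1b27 (n = 8). Without tumor 5 these were 0.74 and 0.22 (n = 7).

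Of 9 genes tested around the Scgb1b27 probe on chromosome 7_random, 1 was called, which is 11.1% against 17.1% of all genes. This was the transcript NAP029896-1, at 0.51 ± 0.24 (SD, n = 8; limma adjusted p = 0.011), 15 kb away.

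Prol1 and Scgb1b27 are best known from salivary and lacrimal glands, so other genes of these glands were read beside them. Of 22 tested, none rose, 4 fell and 18 did not pass (median -0.16). The share called, 18.2%, was close to the 17.1% of all genes.

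Prpmp5, a proline-rich protein gene of saliva, was at -2.11, -2.45, -2.56, -2.74, -3.26, -2.10, -1.65 and -3.91 in tumors 1 to 8. It was low in every tumor, tumor 5 included. The mean was -2.60 ± 0.72 (SD, n = 8; limma adjusted p = 0.000358). Its relative Prb1 was at -2.11 ± 0.51 (lower in 8 of 8 tumors; limma adjusted p = 0.000263). Proline-rich protein genes are close copies, so these probes may read the same messages. Both passed in 20 of 22 alternative settings.

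Egf, an epidermal growth factor gene strongly expressed in the mouse salivary duct, was at -1.93 ± 1.25 (n = 8; limma adjusted p = 0.0106). It was low in 8 of 8 tumors, but at -0.33 in tumor 5 and -0.44 in tumor 7. Cst10 was at -1.56 ± 1.48 (limma adjusted p = 0.0429) and above the pool in tumors 5 and 6, at 0.90 and 0.56. Its call held in 7 of 22 alternative settings. Pip, a secreted protein of exocrine glands, was at -1.29 ± 1.39 and did not pass (limma adjusted p = 0.0662).

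Of 13 genes tested that define the glands' acinar and duct cells, 1 (Prb1) was lower and 12 did not pass, which is 7.69% called against 17.1% of all genes. The median over these markers lay between -0.99 (tumor 2) and 0.38 (tumor 8), and was 0.26 in tumor 5. Amy1, the salivary amylase, was at -0.20 ± 0.92 (limma adjusted p = 0.66) and the mean of Dcpp1 was -0.07 ± 2.03, its sign changing in 7 of 23 alternative settings. Smgc was not well above background. The part of gland tissue in the RNA of the pool or of the tumors was not tested.

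**Figure D4:**
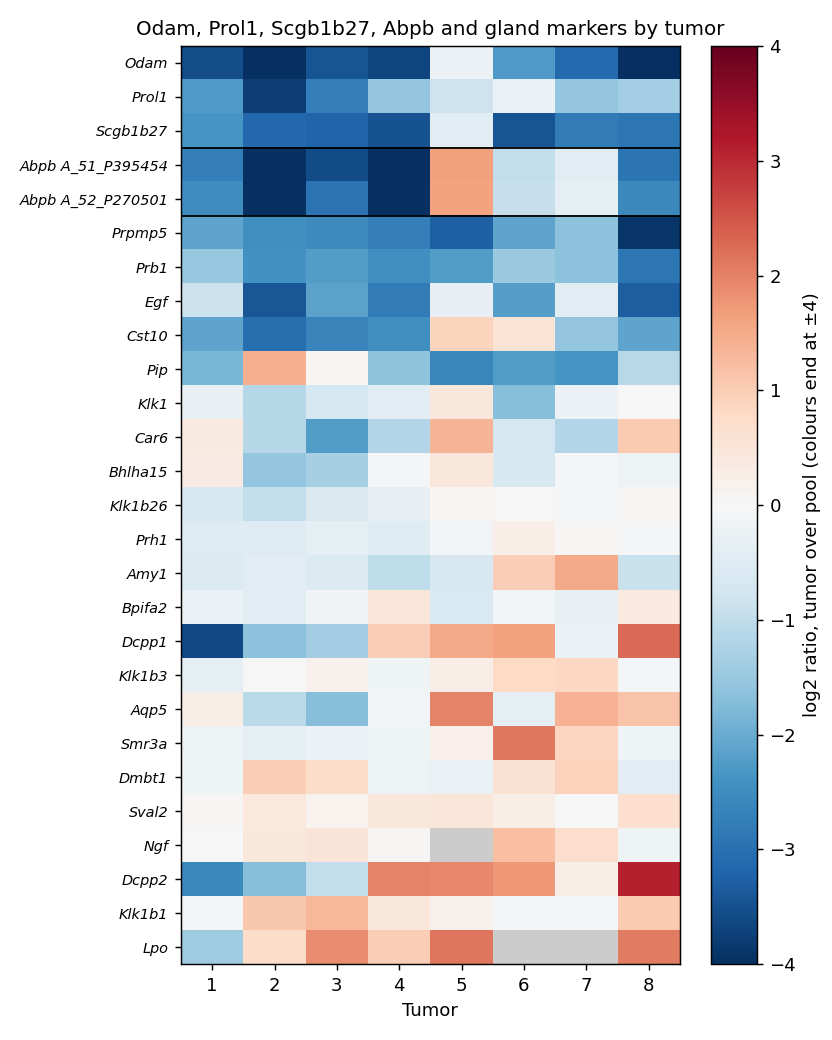
Log2 ratio of tumor over pool in each of 8 tumors (columns) for Odam, Prol1 and Scgb1b27, for 2 probes of Abpb, and for 22 tested salivary and lacrimal gland genes in order of their mean (rows; blue, below the pool; red, above; grey, no usable spot). Prpmp5 and Prb1 are blue in all tumors, while Abpb and Cst10 are red in tumor 5.

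Of 22 regulators of luminal and alveolar cells tested, none rose, 4 fell and 18 did not pass (median -0.06). The share called, 18.2%, was again near the 17.1% of all genes. Tfap2b, which encodes the transcription factor AP-2 beta, was at -2.29, -2.65, -3.52, -3.84, -3.61, -3.52, -3.93 and -4.05 in tumors 1 to 8. It was far below the pool in all, tumor 5 included, with a mean of -3.43 ± 0.63 (SD, n = 8; limma adjusted p = 7.12e-05). Its other probes gave smaller decreases, of -1.09 and -1.10. Esr1, the estrogen receptor gene, was at -0.99 ± 0.84 (limma adjusted p = 0.0325), but a second probe at -0.22 did not pass, and the call held in 12 of 23 alternative settings. Gata3 was at -0.73 ± 0.41.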

How the data were processed

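Agilent Feature Extraction 9.5.3.1 produced the intensity values and log10 ratios of each spot, per the file headers, with probe positions on mm7. The authors' deposited value table holds log2 ratios of the same 12 arrays. Set against the scanner ratios, its sign follows tumor over pool on every array; its centring is unknown. Mean spot intensities were background-corrected (normexp, offset 50) and loess-normalised within each array (limma 3.58.1, R 4.3.3), with control spots given weight 0 and outlier spots left out. Repeated spots, then both arrays of a tumor, were averaged. A probe was kept if either RNA was well above background in at least 4 tumors (30838 probes). The brightest probe stood for a gene. Ratios were tested against 0 in limma (lmFit, eBayes) with Benjamini-Hochberg adjustment over 20404 genes and a threshold of 0.05; 6768 genes had an unadjusted p under 0.05. Levels by channel were taken after Aquantile scaling. The fit was tested on simulated data. Names came from RefSeq (GRCm38.p6) through accessions for 22951 probes and symbols for others, while 8455 of 41174 kept the file's name. Nothing says that the tumors came from separate mice, so p-values measure only the spread between these samples. The genes described and the gene lists were chosen with earlier results of these data known. Genes named are those called with the 3 largest positive and negative means of a list or neighbourhood, genes lying between, markers of other cell types, and the 5 closest patterns; others (Abpb, Cst10, Pip, Gata3, Csn3, Scgb3a1) were named after their values were seen. Alternatives covered spots, normalisation, arrays, dye and pairing, filter, slide and single tumors. A called gene among the luminal and alveolar regulators is not reported here.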

Additional observations from a re-analysis of the deposited data

Results flagged for a closer look

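Among 27 groups of values of the genes named here, 1 tumor stood apart from the others by Dixon's criterion in 5. Odam and Scgb1b27 were chosen by these ratios, so for them the gap is a description with no test; for unselected genes chance gives about 1 group in 20. Odam was at -0.219 in tumor 5, with the other tumors between -3.98 and -2.28. Scgb1b27 was at -0.460 in the same tumor, with the others between -3.47 and -2.35. On first arrays alone neither gap met the criterion: it was 0.523 of the range for Odam and 0.35 for Scgb1b27, whose other tumors then lay between -3.44 and -1.503. Tumor 5 has a first array only, so its values have no repeat. Csn1s2a was at -1.49 in tumor 7 and between 2.21 and 4.67 elsewhere. Esr1 was at -2.85 in tumor 7 and between -1.28 and -0.176 elsewhere, a gap that did not meet the criterion on first arrays alone. NAP029896-1 was at -0.0257 in tumor 3 and between 0.42 and 0.782 elsewhere.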

How the results depend on the processing

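Odam, Prol1 and Scgb1b27 stayed below the pool in all alternatives run. Leaving out each tumor gave -3.43 to -2.89 for Odam, -2.02 to -1.52 for Prol1 and -3.04 to -2.61 for Scgb1b27. Swapped arrays alone moved Scgb1b27 to -3.96, and median centring in place of loess gave -2.67, -1.41 and -2.06. Median centring shifted the median of all genes from -0.02 to 0.16 and raised the share of called genes that were higher from 38.4% to 71.1%. The 3499 called genes became 1639 with swapped arrays only, 1604 with the dye fitted on best-match pairs, 2080 with slide as a block, 929 within slide 1, 8 within slide 2 and 2242 with tumors paired by best match, a pairing chosen after seeing the data. They ranged from 1962 (without tumor 4) to 4541 (without tumor 6) with single tumors left out. Within slide 2, 0 family phosphoproteins, 1 milk gene, 1 regulator, 0 gland genes, 0 other secreted genes and 0 neighbours of either Odam or Scgb1b27 were called; within slide 1 the counts were 7 milk genes, 1 regulator, 2 gland genes, 2 other secreted genes and 0 neighbours of Scgb1b27, in each case with 4 tumors. Secretoglobins called became 1 with outlier spots kept. The 4 regulators became 7 in the value table and 1 with the dye fitted on best-match pairs. The 4 gland genes became 7 in the value table and with the dye fitted on labelled pairs, and 1 under the strict filter. The 8 other secreted genes became 3 with swapped arrays only and with slide as a block, 2 with the dye fitted on best-match pairs and 4 with tumors paired by best match. The 7 neighbours of Odam became 4 under both best-match settings, and the 1 of Scgb1b27 became 2 with median centring, scanner log ratios and the dye fitted on labelled pairs. Single tumors left out gave 3 to 5 regulators, 11 to 14 milk genes, 6 to 10 other secreted genes, 5 to 8 neighbours of Odam, 1 to 2 neighbours of Scgb1b27, 3 to 4 gland genes, 0 secretoglobins and 4 to 5 family phosphoproteins. The causes were not tested. No paired analysis was possible because only 1 group of tumors was compared with the pool. With 8 tumors and 1 pool, the spread between control tumors is unknown.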

Other observations

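Of 19 mucins and other secreted epithelial proteins tested, 6 rose, 2 fell and 11 did not pass, with a median of 0.67. The share called was 42.1%, against 17.1% of all genes. Ltf, the lactoferrin gene, was higher in 8 of 8 tumors at 1.79 ± 0.66 (SD, n = 8; limma adjusted p = 0.00135). Lcn2, a siderophore-binding lipocalin, was higher in 7 of 8 tumors at a mean of 1.498 ± 1.12 (limma adjusted p = 0.0189). Its direction differed between the sets of arrays, with a mean of 2.299 on first arrays alone and -1.01 on swapped arrays alone. The fits with a dye term gave 0.58 and 0.64. Swapped arrays are on a slide of their own and hold fewer tumors, under doubtful labels. Dye, slide and tumor therefore cannot be told apart for Lcn2. Reg3g, an antibacterial lectin of mucosal surfaces, was at 1.44 ± 1.08 (limma adjusted p = 0.019) and passed in 15 of 22 settings. Muc2, a gel-forming mucin, was lower in 8 of 8 tumors at -0.74 ± 0.34 (limma adjusted p = 0.00591). Pigr, described among the milk genes, was the other gene of this list that fell.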
